A study of Mus musculus with 16 samples.

Results

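General adipocyte genes are 10 genes whose products define the mature fat cell: Adipoq, Lep, Plin1, Retn, Cfd, Fabp4, Lpl, Lipe, Pparg and Cidec. They were taken by symbol from a table of 29695 genes counted in mouse suprarenal aorta, the segment of the abdominal aorta above the renal arteries. All 10 were found once each, and all 10 were among the 15984 genes that passed the filter on low counts and were tested. The samples were suprarenal aortae of male mice, 4 libraries in each of 4 groups. KO AngII mice were Vamp8-/- and received angiotensin II (AngII), a vasoconstrictor peptide, at 1000 ng/kg/min for 5 days from an osmotic minipump under the skin. KO saline mice were Vamp8-/- with a pump that delivered saline for the same time. WT AngII and WT saline mice were C57BL/6 wild type with the same infusions. Vamp8 codes for a SNARE, one of the proteins with which vesicles fuse to their target membrane. No promoter limits the deletion to a cell type in the labels, and neither the age of the mice nor whether KO and WT mice were littermates is stated there. Per the labels' protocols, vessels were rinsed through with saline, the tissue around them was dissected off, and aortae with bleeding in the wall were left out before sequencing.

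White and brown adipocytes surround the aorta as perivascular fat. Adipocytes store triglyceride in droplets coated by proteins such as perilipin 1, take up fatty acids that lipoprotein lipase frees from circulating lipoproteins, and release them again through hormone-sensitive lipase. The nuclear receptor PPAR gamma together with C/EBP alpha drives most of this programme. Adipocytes also secrete hormones, among them adiponectin and leptin. Leptin reports the fat store to the hypothalamus, and its mRNA is high in white and low in brown adipocytes.

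Total counts ran from 13284804 to 21643548 reads per library. Vamp8 itself stood at 14.1 to 26.7 CPM (counts scaled to a common library total with TMM factors, which offset differences in library makeup) in KO AngII libraries, against 52.3 to 60.8 CPM in WT AngII libraries. In 3 of the KO saline libraries it stood at 24.9 to 31.4 CPM, against 45.8 to 57.1 CPM in WT saline libraries. The library labelled KO saline replicate 1 held 53.3 CPM of Vamp8, which goes against its label, and it also had the highest summed level of the 10 adipocyte genes. By the edgeR quasi-likelihood test Vamp8 was called lower in KO AngII than in WT AngII (log2 fold change -1.29, adjusted p = 0.00981). In KO saline against WT saline, with that library included, Vamp8 was not called (-0.61, edgeR adjusted p = 0.147). KO AngII replicate 4 stood apart by genes of sympathetic neurons and chromaffin cells (1901 CPM over 6 genes). The summed level of smooth muscle genes, which mark the labelled tissue, was 5361 to 20266 CPM over 6 genes. The 10 adipocyte genes summed to 6405 to 13376 CPM in KO AngII, 8016 to 17629 CPM in KO saline, 3797 to 10222 CPM in WT AngII and 2828 to 14428 CPM in WT saline. No library had an adipocyte gene at 0. In such whole-tissue RNA, less fat left on the vessel at dissection, fewer adipocytes and less RNA per adipocyte cannot be told apart.

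The start regions of 3 of the genes are shown because 2 of them, Plin1 and Adipoq, followed each other across libraries and Lep did not. The sequences are the 250 bases before the RefSeq transcription start on GRCm38.p6, read 5′ to 3′ on the coding strand. They lie at chr6:29059971-29060220 on the plus strand for Lep, chr7:79732777-79733026 on the minus strand for Plin1 and chr16:23146286-23146535 on the plus strand for Adipoq. Capitals mark matches to TTGCNNAA, a relaxed form of the site that C/EBP factors bind, searched on both strands.
Lep: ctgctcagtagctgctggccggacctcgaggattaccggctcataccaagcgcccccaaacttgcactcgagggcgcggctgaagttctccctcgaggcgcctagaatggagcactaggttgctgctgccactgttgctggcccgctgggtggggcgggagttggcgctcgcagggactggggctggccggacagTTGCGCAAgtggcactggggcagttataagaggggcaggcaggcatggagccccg
Plin1: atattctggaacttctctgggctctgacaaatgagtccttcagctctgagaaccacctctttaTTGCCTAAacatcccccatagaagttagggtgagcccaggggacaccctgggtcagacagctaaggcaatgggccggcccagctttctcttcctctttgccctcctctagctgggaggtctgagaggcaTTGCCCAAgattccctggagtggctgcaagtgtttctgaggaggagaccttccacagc
Adipoq: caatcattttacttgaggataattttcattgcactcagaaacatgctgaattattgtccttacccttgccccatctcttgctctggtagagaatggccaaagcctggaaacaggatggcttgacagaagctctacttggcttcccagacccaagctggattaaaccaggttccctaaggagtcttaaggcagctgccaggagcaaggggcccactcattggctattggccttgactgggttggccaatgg
RefSeq start regions were at hand for 8 of the 10 genes, with 12 start sites in all. A match to TTGCNNAA was present in 4 of those 12 regions, 1 each of Lep, Plin1, Cidec and Pparg, and in 9.56% of 32851 mouse start regions of the same length. The Lep match, 55 to 48 bases before the start, is the full palindrome TTGCGCAA, a subset of the relaxed form that 0.164% of start regions hold. Plin1 had 2 matches, at 187 to 180 and at 58 to 51 bases before its start, and Adipoq had none in this window. The element bound by PPAR gamma with its partner RXR, written here as AGGTCA repeated after 1 base, was found in none of the 8 genes and in 0.0335% of start regions. A match is a string of letters and was not tested as a site.

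Levels spanned a wide range. Per kilobase of annotated exon, mean levels over the 16 libraries were 2191 CPM for Cfd, 827 for Fabp4, 356 for Adipoq, 241 for Cidec, 157 for Lpl, 114 for Plin1, 70.7 for Lipe, 59.6 for Retn and 30.0 for Pparg. Lep was the lowest at 4.78 CPM per kilobase. Its counts were still 36 to 1423 reads per library, so that each library measured it. Lipe shares exon sequence with an annotated gene on the opposite strand, and how reads were assigned to strands is not stated, so reads of the pair cannot be told apart.

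Among the secreted products, Lep, the gene of leptin, varied most. KO AngII libraries held 14.8, 69.9, 38.0 and 30.1 CPM of Lep, against 4.05, 4.94, 2.40 and 3.03 CPM in WT AngII libraries. KO saline libraries held 9.61, 8.82, 16.7 and 14.2 CPM, against 6.23, 13.2, 7.60 and 12.7 CPM in WT saline libraries. Every KO AngII library was above every WT AngII library, and KO AngII replicate 1 was the lowest of its group and the only one within reach of the KO saline libraries. How many of all genes tested separate in this way was not counted. Across libraries Lep spanned a 29.1-fold range, and each of the other 9 genes spanned a range of 4.54-fold to 9.42-fold.

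Adipoq encodes adiponectin, a hormone made almost only by adipocytes. Adipoq stood at 726, 486, 352 and 531 CPM in KO AngII aortae and at 899, 820.2, 675 and 393 CPM in KO saline aortae. In WT aortae Adipoq stood at 562, 476, 184 and 333 CPM under AngII and at 138, 675, 456 and 161 CPM under saline. All 4 groups overlapped, and WT saline held both the lowest library and, at 675 CPM, one of the higher ones. Retn encodes resistin, in mice a hormone of adipocytes. KO AngII libraries held 103, 137, 70.4 and 144 CPM of Retn, and KO saline libraries 106, 168, 135 and 94.2 CPM. WT AngII libraries held 69.2, 61.6, 35.4 and 66.3 CPM, and WT saline libraries 41.1, 101, 125 and 49.2 CPM. KO AngII and WT AngII did not overlap for Retn, although their nearest libraries, at 70.4 and 69.2 CPM, were close. The share of all genes tested without such overlap was not counted, so this is a description. Cfd encodes adipsin, the complement factor D of the alternative pathway. The Cfd level was 2180, 2423, 1322 and 2920 CPM in the KO AngII group and 2119, 3333, 2633 and 1771 CPM in the KO saline group. For WT mice the Cfd level was 2514, 1822, 831 and 1875 CPM with AngII and 734, 2483, 2609 and 753 CPM with saline. The Cfd levels of all 4 groups overlapped.

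Plin1 and Cidec encode proteins of the lipid droplet. Perilipin 1 guards the droplet surface against lipases, and Cidec makes droplets fuse into the single large one of white adipocytes. Plin1 stood at 787, 464, 461 and 528 CPM in KO AngII aortae and at 948, 724, 713 and 505 CPM in KO saline aortae. In WT aortae Plin1 stood at 577, 522, 182 and 292 CPM under AngII and at 167, 874, 502 and 201 CPM under saline. The KO and WT groups overlapped for Plin1 under both infusions. KO AngII libraries held 620.3, 488, 296 and 586 CPM of Cidec, and KO saline libraries 745, 748, 728 and 353 CPM. WT AngII libraries held 464, 379, 144 and 278 CPM, and WT saline libraries 112, 641, 456 and 120.0 CPM. KO saline replicate 4 lay below the other 3 KO saline libraries of Cidec, and all groups overlapped.

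Fabp4 (the fatty acid carrier of the adipocyte cytosol), Lpl (lipoprotein lipase) and Lipe (hormone-sensitive lipase) handle fatty acids. Fabp4 stood at 5874, 3162, 2360 and 2732 CPM in KO AngII aortae and at 8538, 5757, 4691 and 3204 CPM in KO saline aortae. In WT aortae Fabp4 stood at 3808, 4026, 1661 and 2444 CPM under AngII and at 1208, 5996, 3044 and 906 CPM under saline. The library labelled KO saline replicate 1 was the highest of the 16 for Fabp4. KO AngII libraries held 2265, 1515, 1017 and 1363 CPM of Lpl, and KO saline libraries 3219, 2364, 2355 and 1229 CPM. WT AngII libraries held 1737, 1850, 572 and 1237 CPM, and WT saline libraries 493, 2868, 1835 and 468 CPM. WT saline replicates 2 and 3 stood well above WT saline replicates 1 and 4 for Lpl. The Lipe level was 688, 381, 401 and 357 CPM in the KO AngII group and 895, 602, 535 and 392 CPM in the KO saline group. For WT mice the Lipe level was 374, 439, 144 and 231 CPM with AngII and 136, 593, 364 and 132 CPM with saline. KO AngII replicate 1 lay above the other 3 KO AngII libraries of Lipe. Fabp4 and Lpl are also expressed outside adipocytes, Fabp4 in capillary endothelium and both in macrophages. Pparg encodes PPAR gamma, the regulator of adipocyte identity. Pparg stood at 117, 109.8, 87.9 and 82.6 CPM in KO AngII aortae and at 151, 86.7, 91.8 and 61.1 CPM in KO saline aortae. In WT aortae Pparg stood at 113, 111, 41.3 and 53.3 CPM under AngII and at 26.1, 183, 77.1 and 24.3 CPM under saline. WT saline held both the lowest and the highest Pparg level.

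**Figure D1:**
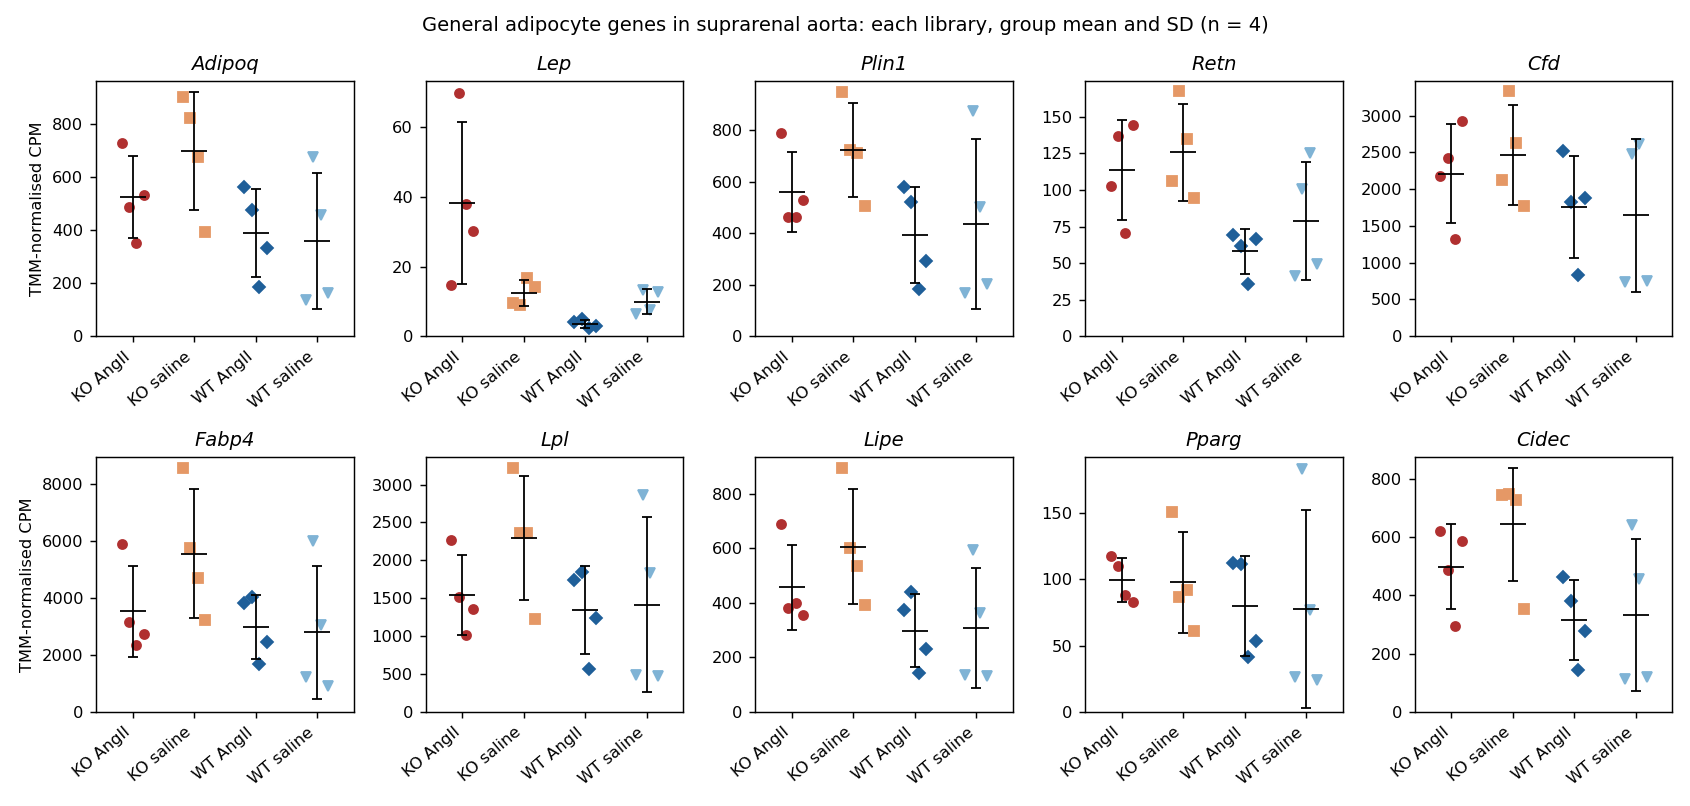
TMM-normalised CPM of the 10 adipocyte genes (vertical axes, linear, from 0) in each library of KO AngII, KO saline, WT AngII and WT saline; points are libraries, the horizontal mark and bar are the group mean and SD (n = 4). In the Lep panel KO AngII libraries lie at 14.8 to 69.9 CPM and WT AngII libraries at 2.40 to 4.94 CPM. In the Retn panel KO AngII libraries lie at 70.4 to 144 CPM and WT AngII libraries at 35.4 to 69.2 CPM. In the other panels the groups share much of their range.

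The comparison of KO with WT mice under AngII asks whether loss of Vamp8 goes with another level of these genes in the AngII-infused aorta. Lep was higher in KO AngII, at 38.2 ± 23.2 CPM, against 3.60 ± 1.12 CPM in WT AngII (mean ± SD, n = 4 each). The difference was 10.6-fold, a log2 fold change of 3.41 with an SE of 0.44 (edgeR quasi-likelihood test, adjusted p = 0.000648 over all genes tested). By p it was rank 27 of the 15984 genes. Lep was the only one of the 10 genes called in this comparison, in which 2.03% of all genes tested were called. It was called in 26 of 26 alternative fits, with log2 fold changes of 2.92 to 3.67 and adjusted p of 1.3e-13 to 0.0183. Without KO AngII replicate 2, the library with the most Lep, the value was 2.92.

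Retn came next, at 114 ± 34.0 CPM in KO AngII, against 58.1 ± 15.5 CPM in WT AngII (n = 4 each). Its log2 fold change of 0.97 (SE 0.35) had an adjusted p of 0.143 by edgeR and passed in 0 of 25 alternatives. The other 8 genes had log2 fold changes of 0.19 (Lpl) to 0.65 (Cidec), with groups that overlapped and none of them called. All 10 values were positive with a median of 0.47, against a median of 0.04 over all genes tested. The signs are not independent, since 9 of the genes followed the same libraries up and down. Lpl and Fabp4 turned negative when KO AngII replicate 1 was left out, at -0.055 and -0.12.

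**Figure D2:**
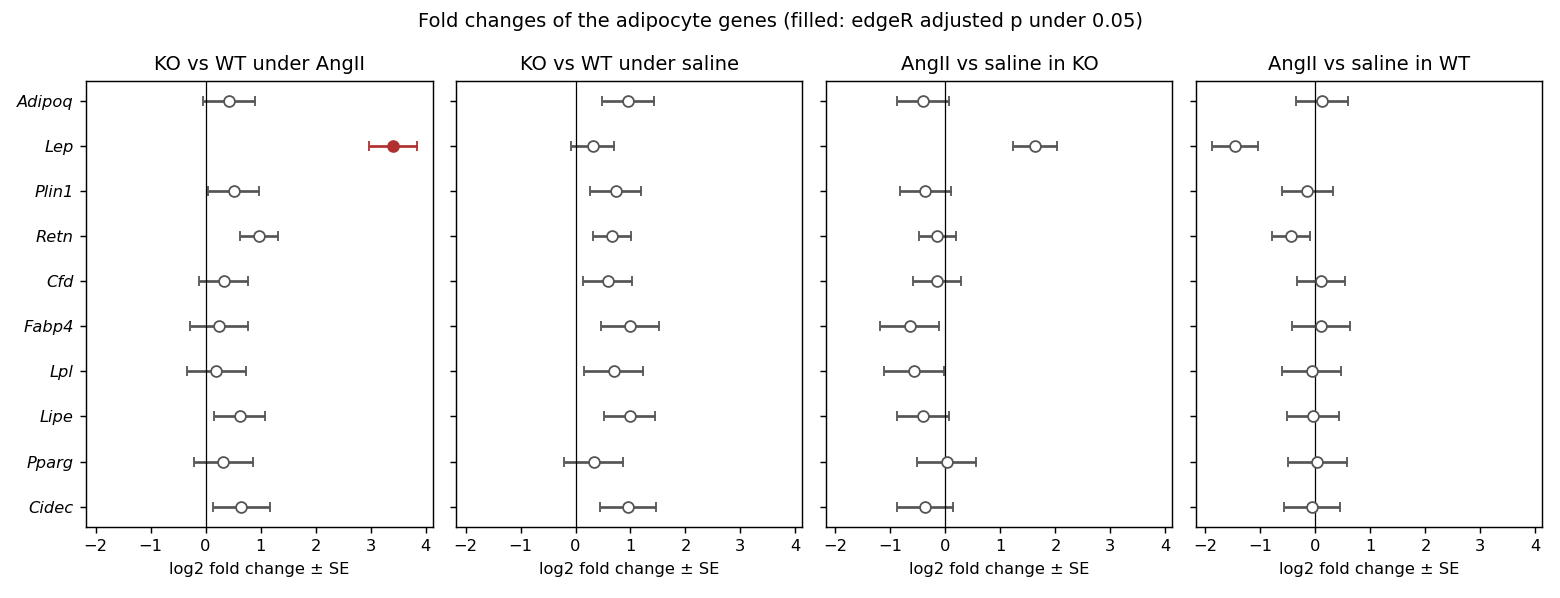
Log2 fold change ± SE (horizontal axis) of each adipocyte gene in 4 comparisons, from the edgeR fit of all 16 libraries; filled points passed an adjusted p under 0.05. Lep under AngII, KO against WT, is the only filled point, at 3.41, and Lep lies on opposite sides of 0 for AngII against saline in KO (1.63) and in WT (-1.47).

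Marker genes of other cell types were read in the same groups. The 6 sympathetic and chromaffin genes summed to 0.655 to 1901 CPM in KO AngII, against 0.267 to 1.60 CPM in WT AngII, and up to 4 of them were at 0 in a library. The sum was 126 CPM in KO AngII replicate 2 and 1901 CPM in replicate 4, and 0.978 and 0.655 CPM in KO AngII replicates 1 and 3. Lep stood at 69.9 and 30.1 CPM in KO AngII replicates 2 and 4, and at 14.8 and 38.0 CPM in replicates 1 and 3. Chgb, a granule protein of neuroendocrine cells, was the 1 gene of that list called higher in KO AngII (log2 fold change 8.54, SE 2.10, edgeR adjusted p = 0.0495), and without KO AngII replicate 4 it was no longer called (6.18, SE 1.83, edgeR adjusted p = 0.119). Without that library the log2 fold change of Lep was 3.48. The 6 macrophage genes summed to 201 to 331 CPM in KO AngII, against 271 to 860 CPM in WT AngII, and none was at 0. The 7 endothelial genes summed to 1162 to 2038 CPM in KO AngII, against 926 to 1491 CPM in WT AngII. Mitochondrial reads were 10.1% to 24.3% of KO AngII libraries and 9.56% to 16.3% of WT AngII libraries. The part of sympathetic and chromaffin, macrophage, endothelial and mitochondrial RNA in the Lep difference was not tested.

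Under saline the comparison of KO with WT gave positive values for all 10 genes and calls for none. The 10 log2 fold changes ran from 0.31 (Lep) to 0.99 (Fabp4), all positive with a median of 0.71, against 0.05 over all genes tested. None of the 10 was called by edgeR, in a comparison with 3.01% of all genes called. None of the 10 had an unadjusted p under 0.05 by edgeR, against 21.8% of all genes tested. DESeq2 also called none, with 8.61% of all genes called. The lowest adjusted p was 0.236, for Lipe, at 606 ± 212 CPM in KO saline, against 306 ± 219.6 CPM in WT saline (n = 4 each). Adipoq averaged 697 ± 223 CPM in KO saline, against 358 ± 257 CPM in WT saline, with a log2 fold change of 0.96 (SE 0.47). WT saline spread widely: for Fabp4 it ran from 906 CPM in replicate 4 to 5996 CPM in replicate 2.

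The calls under saline changed with the fitting tool and with the libraries included. limma voom with library quality weights called 6 of the 10 genes higher in KO saline, namely Adipoq, Cidec, Fabp4, Lipe, Plin1 and Retn, at log2 fold changes of 1.10 (Retn) to 1.72 (Cidec), in a fit that called 20.0% of all genes tested. Without WT saline replicate 2 edgeR called Fabp4 (1.69, adjusted p = 0.046) and Lipe (1.52, adjusted p = 0.0469), in a fit that called 10.7% of all genes tested. Without the library labelled KO saline replicate 1, edgeR called 1.21% of all genes but no adipocyte gene, and the values ran from 0.0047 (Pparg) to 0.85 (Cidec). With library totals in place of scaling factors the median of all genes moved to -0.28 and the Lep value to 0.010, while Adipoq stood at 0.66. Smooth muscle genes summed to 8254 to 10865 CPM in KO saline, against 7473 to 20266 CPM in WT saline, and mitochondrial reads made up 27.0% to 32.8% of KO saline libraries, against 8.33% to 17.7% of WT saline libraries. Endothelial genes summed to 1340 to 2250 CPM in KO saline, against 1132 to 1617 CPM in WT saline. Their part in the higher values was not tested.

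The response to AngII was examined within each genotype, and Lep had the value farthest from 0 among the 10 genes in both. In KO mice the log2 fold change of Lep was 1.63 (SE 0.40), at 38.2 ± 23.2 CPM in KO AngII, against 12.3 ± 3.76 CPM in KO saline (n = 4 each). It was not called by edgeR (adjusted p = 0.112), in a comparison with 0.0501% of all genes called. DESeq2 (adjusted p = 0.00629) and limma voom (adjusted p = 0.0269) called it, as did edgeR without KO AngII replicate 1 (1.90, adjusted p = 0.0467). These fits called 4.64%, 3.51% and 0.184% of all genes tested. Over all alternatives the value was 1.15 to 1.90. The other 9 genes had values of -0.65 (Fabp4) to 0.03 (Pparg), none of them called.

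In WT mice the log2 fold change of Lep was -1.47 (SE 0.42), at 3.60 ± 1.12 CPM in WT AngII, against 9.95 ± 3.55 CPM in WT saline. The libraries did not overlap, with 2.40 to 4.94 CPM under AngII and 6.23 to 13.2 CPM under saline. The share of all genes tested without overlap was not counted here either. edgeR did not call it (adjusted p = 0.194), in a comparison with 0.444% of all genes called, and DESeq2 did (adjusted p = 0.0282), in a fit that called 1.77% of all genes tested. The other 9 values lay between -0.44 (Retn) and 0.12 (Adipoq), none of them called. Adipoq in WT AngII was 389 ± 166 CPM, against 358 ± 257 CPM in WT saline, a difference far inside the spread.

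Whether the AngII response differed between genotypes was tested by the interaction, the response in KO minus the response in WT. The Lep interaction was 3.10 on the log2 scale (SE 0.58), with an unadjusted p of 7.66e-05 and an adjusted p of 0.185 by edgeR. edgeR called 0.0188% of all genes and none of the 10 here, with 1793 genes (11.2%) under an unadjusted p of 0.05. DESeq2 called the Lep interaction (3.11, adjusted p = 0.000131), as did limma voom (2.98, adjusted p = 0.04997) and edgeR without KO AngII replicate 1 (3.36, adjusted p = 0.0403). These fits called 0.684%, 1.13% and 0.0245% of all genes tested. On CPM, the range over the alternatives was 2.61 to 3.44. The other 9 interactions ran from -0.75 (Fabp4) to 0.30 (Retn).

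Across the 16 libraries, 8 of the 9 other genes followed Adipoq. On log2 CPM, Pearson's r with Adipoq was 0.987 for Cidec, 0.974 for Plin1, 0.973 for Lpl, 0.962 for Lipe, 0.957 for Fabp4, 0.911 for Cfd, 0.905 for Pparg and 0.820 for Retn. Spearman's rho was 0.721 (Retn) to 0.974 (Cidec). The permutation p adjusted over the 9 genes was 1.5e-05 to 0.000191 for r and 2.25e-05 to 0.00236 for rho, with 1e-05 the smallest unadjusted p that 100000 permutations can give. For Lep r was 0.269 (permutation p = 0.315) and rho was 0.285 (permutation p = 0.283). Without WT saline replicates 1 and 4, the libraries farthest from the median Adipoq level, r was 0.741 to 0.974 for the 8 genes and 0.304 for Lep. After group means were subtracted it was 0.809 to 0.985 for the 8 genes and 0.0544 for Lep. Within the 8 KO libraries Lep had an r of -0.665, against 0.541 (Retn), 0.633 (Pparg), 0.640 (Cfd) and 0.856 to 0.969 for the other 5 genes. Within the 8 WT libraries Lep had an r of 0.113, against 0.808 (Retn) to 0.994 (Cidec) for the 8 genes.

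**Figure D3:**
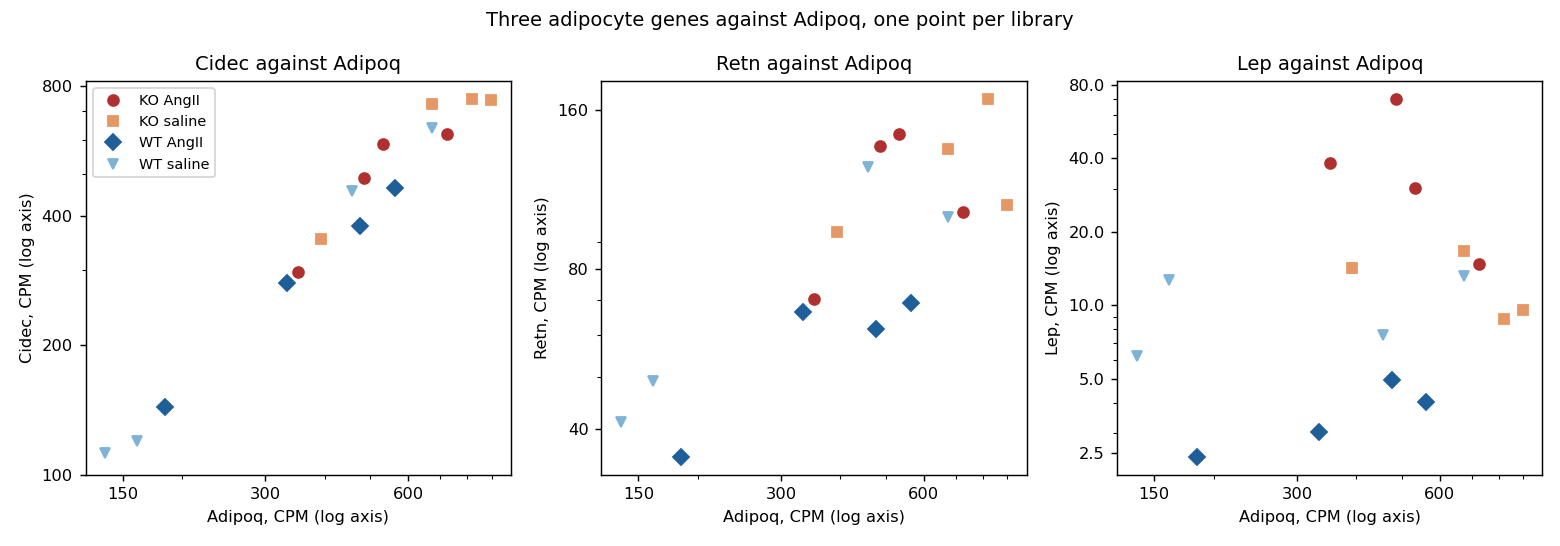
CPM of Cidec, Retn and Lep (vertical axes, log) against CPM of Adipoq (horizontal axes, log), 1 point per library, with symbols for KO AngII, KO saline, WT AngII and WT saline. Cidec follows Adipoq closely (r = 0.987), Retn less so (r = 0.820), and in the Lep panel 3 of 4 KO AngII libraries lie above, and all 4 WT AngII libraries below, every other library.

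Reads of each gene relative to Adipoq reads in the same library show the same contrast without any scaling between libraries. Cidec stood at 74.6 to 110 reads per 100 Adipoq reads and Plin1 at 87.8 to 131. Retn stood at 11.8 to 30.6 reads per 100. Lep spanned 0.719 to 14.4 reads per 100, and the SD of its log2 ratio was 1.35, against 0.169 (Cidec) to 0.471 (Retn) for the other genes.

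By group, Lep had 2.04, 14.4, 10.8 and 5.67 reads per 100 Adipoq reads in KO AngII and 1.07, 1.08, 2.48 and 3.62 in KO saline. WT AngII had 0.719, 1.04, 1.30 and 0.909, and WT saline 4.52, 1.96, 1.66 and 7.92. KO AngII lay above WT AngII without overlap, 6.72-fold on the log scale (exact permutation p = 0.0286, adjusted p = 0.0476 over 5 comparisons). WT AngII lay below WT saline without overlap, with a log2 difference of -1.76 (exact permutation p = 0.0286, adjusted p = 0.0476). The value 0.0286 is the smallest that 4 libraries against 4 allow. In KO the log2 difference of AngII and saline was 1.86 (exact permutation p = 0.0857, adjusted p = 0.107). The ratio in KO saline was lower than in WT saline by a log2 difference of -0.88, which did not pass (exact permutation p = 0.286), whereas the CPM of Lep had the opposite sign at 0.31. The interaction of the log2 ratio was 3.62 (exact permutation over 4900 arrangements, p = 0.00653, adjusted p = 0.0327). Genotype labels were permuted within each infusion, so this p is set against no genotype difference under either infusion. It cannot decide whether the AngII response differed between genotypes, since a genotype difference under AngII already goes against that null. These ratios were chosen after the Lep values had been seen.

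**Figure D4:**
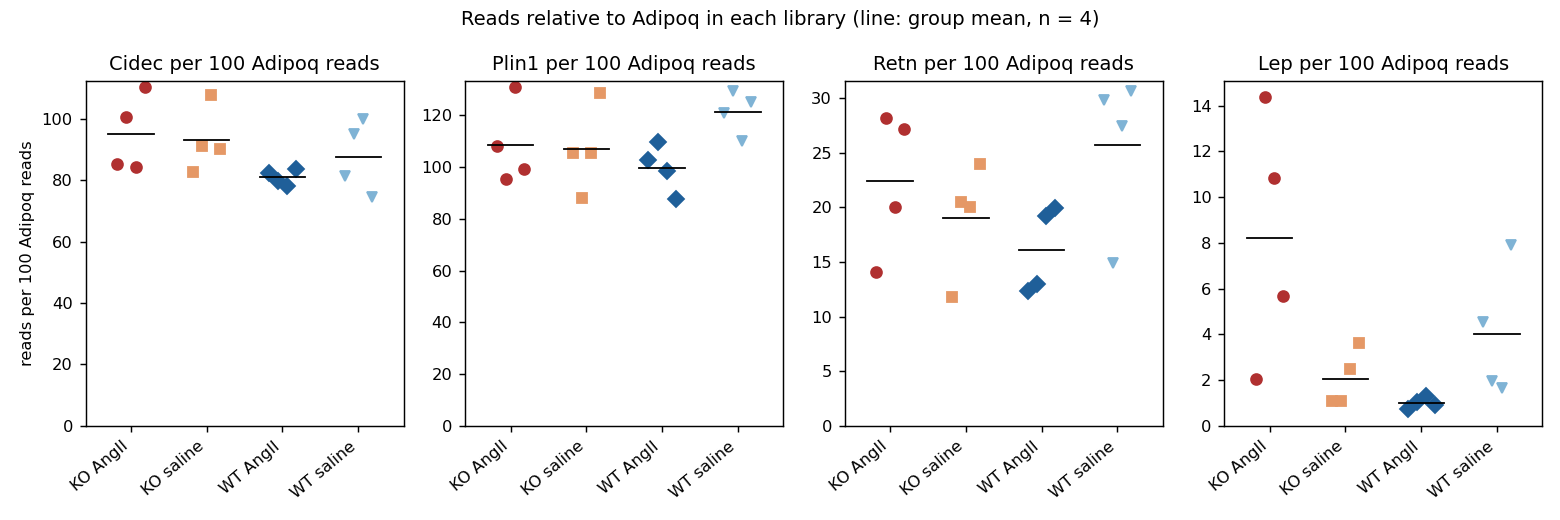
Reads of Cidec, Plin1, Retn and Lep per 100 Adipoq reads (vertical axes, linear, from 0) in each library of KO AngII, KO saline, WT AngII and WT saline; the line is the group mean (n = 4). Cidec and Plin1 keep within 74.6 to 131 in every library, and Lep is at 2.04 to 14.4 in KO AngII and at 0.719 to 1.30 in WT AngII.

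A fit with the log2 Adipoq level as a covariate, also added after the data had been seen, put the Lep difference between KO AngII and WT AngII at 3.39 (SE 0.45, edgeR adjusted p = 0.0011). For KO saline against WT saline the covariate put Cidec at -0.02, against 0.95 without it. Plin1 was -0.13 with it and 0.73 without it. Fabp4 was 0.05 with it and 0.99 without it, and Pparg was -0.52 with it and 0.33 without it. None of these 4 genes passed with the covariate. On log2 Adipoq the slope was 0.046 for Lep and 0.95 (Plin1) to 1.09 (Cidec) for these 4 genes. The covariate could therefore hardly move Lep, and had to lower the 4 genes where Adipoq was higher in value. These values follow from the correlations with Adipoq and are not separate support.

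The genes of the table most like the group were ranked by Pearson's r with the mean standardised log2 CPM of the 10 genes, over 16 libraries and 15813 named genes. The first 10 outside the group were Lgals12 (0.984), Plaat3 (0.979), Acp5 (0.978), Cd36 (0.973), Irs3 (0.973), Cebpa (0.967), Ppp1r1a (0.966), Mrap (0.964), Amy1 (0.962) and Tmem120a (0.962). Cd36 encodes a fatty acid transporter and Cebpa encodes C/EBP alpha. Among the 10 genes themselves r with this mean, of which each is a part, was 0.872 (Retn) to 0.989 (Cidec) for 9 genes and 0.415 for Lep. All libraries and group differences enter these values, so they are a description.

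Other genes of adipocyte pathways were read from lists to see whether they moved like the 9 genes or like Lep. No gene of the 7 lists of droplet proteins, lipolysis, triglyceride synthesis, lipoprotein lipase partners, lipogenesis, adipogenic transcription factors and adipokine receptors was called by edgeR in any of the 5 comparisons. Of these 52 tested genes, 7 had an unadjusted p under 0.05 and were higher in KO AngII than in WT AngII, and 10 were higher in KO saline than in WT saline. Another 1 and 3 genes had such a p and were lower in these comparisons. In all, 15.4% of the 52 genes had such a p in KO AngII against WT AngII and 25.0% in KO saline against WT saline. Of all genes tested 17.9% and 21.8% did, so by this edgeR measure the shares of the lists were near those of all genes. DESeq2 called 3 higher and 0 lower in KO AngII and 2 higher and 1 lower in KO saline, and limma voom 1 and 0, and 20 and 2. For these comparisons DESeq2 called 7.77% and 8.61% of all genes tested, and limma voom 3.63% and 20.0%. The limma voom calls under saline were thus a larger share of the 52 genes than of all genes, and the other shares were smaller. For KO against WT under AngII, 10 of 10 lipogenesis genes were positive with a median log2 fold change of 0.70, as were 9 of 10 triglyceride synthesis genes (0.27), 5 of 6 lipolysis genes (0.30) and 6 of 8 droplet genes (0.22). Fasn, the fatty acid synthase, averaged 6156 ± 3582 CPM in KO AngII, against 3866 ± 2766 CPM in WT AngII (n = 4 each). Scd1, which desaturates fatty acids, averaged 10501 ± 4163 CPM in KO AngII, against 10262 ± 5489 CPM in WT AngII. Pnpla2, the lipase of the first step of lipolysis, averaged 1012 ± 374 CPM in KO AngII, against 774 ± 386 CPM in WT AngII. Plin4, a perilipin of nascent droplets, had a log2 fold change of 0.45 (SE 0.19) and Mgll, the lipase of the last step, of 0.25 (SE 0.34).

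For KO against WT under saline, 10 of 10 lipogenesis genes (median 0.78), 10 of 10 triglyceride synthesis genes (0.61), 6 of 6 lipolysis genes (0.68) and 6 of 8 droplet genes (0.59) were positive. Plin2, the perilipin of many cell types, averaged 697 ± 331 CPM in KO saline, against 287 ± 242 CPM in WT saline. Under AngII Plin2 averaged 307 ± 155 CPM in KO AngII, against 272 ± 103 CPM in WT AngII. Plin4 was lower in value in KO saline, at 375 ± 50.2 CPM, against 434 ± 82.0 CPM in WT saline. Mgll averaged 743 ± 182 CPM in KO saline, against 415 ± 229.7 CPM in WT saline. Gpd1, which makes the glycerol backbone, had a log2 fold change of 0.67 (SE 0.70), and Pck1, an enzyme of glyceroneogenesis, of 0.07 (SE 0.58).

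Of 6 tested lipoprotein lipase partners 5 were positive under saline and 3 under AngII. Angptl4, an inhibitor of the lipase, had log2 fold changes of -0.35 (SE 0.43) under AngII and 0.27 (SE 0.43) under saline. Sel1l, which helps the lipase leave the endoplasmic reticulum, had -0.14 (SE 0.13) and -0.46 (SE 0.13, edgeR adjusted p = 0.0628) for the same comparisons. Among 8 transcription factors the medians were 0.12 under AngII and 0.19 under saline, and Cebpa, at 0.52 (SE 0.45) and 0.98 (SE 0.45), was higher in value than Rxra, at -0.14 (SE 0.11) and -0.24 (SE 0.11). Of the 4 adipokine receptors, Adipor2 had 0.40 (SE 0.42) under AngII and 0.43 (SE 0.42) under saline, and Cdh13, the T-cadherin that binds adiponectin, had -0.52 (SE 0.23) and -0.60 (SE 0.23).

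**Figure D5:**
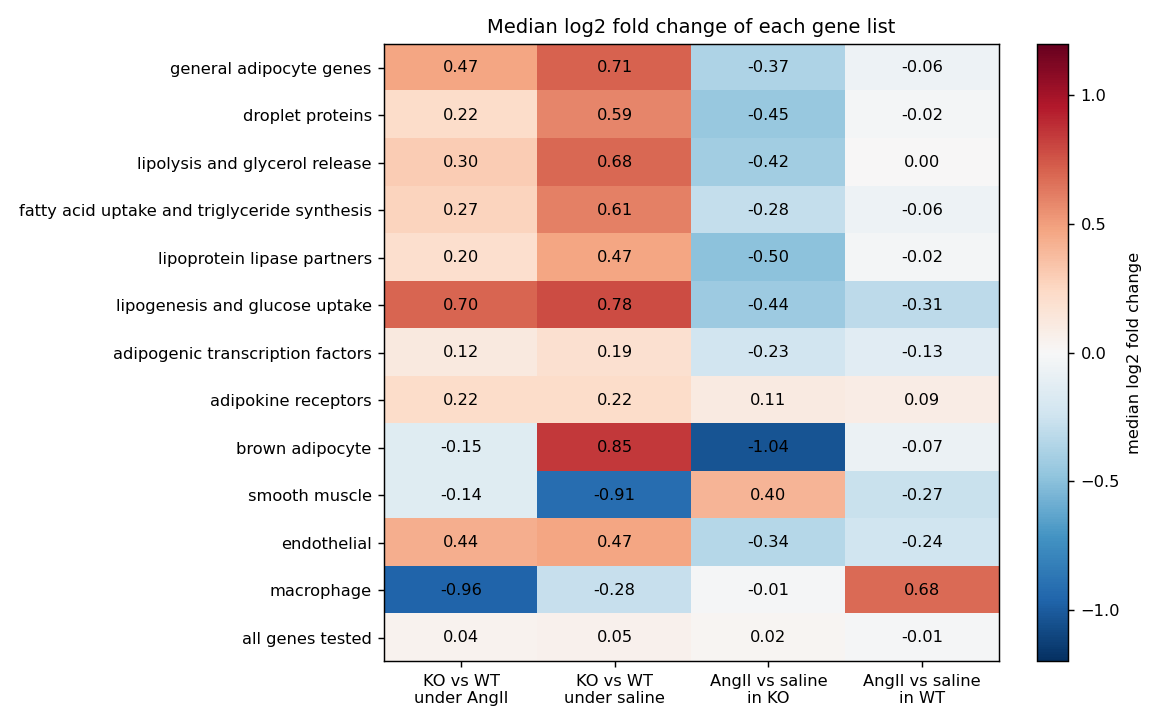
Median log2 fold change (colour and printed value) of each gene list (lines) in 4 comparisons (columns), with the general adipocyte genes at the top and all genes tested at the bottom. In KO against WT under saline the general adipocyte genes have a median of 0.71 and lipogenesis genes 0.78, against 0.05 over all genes tested.

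Brown adipocyte genes were read beside the group, and none was called in the comparisons given here. For AngII against saline in KO, 0 of 11 tested brown genes were positive, with a median log2 fold change of -1.04. The general adipocyte genes had a median of the same sign there, -0.37, with 2 of 10 positive and, without Lep, 1 of 9. Ucp1, the uncoupling protein of brown fat, averaged 641 ± 573 CPM in KO AngII and 1928 ± 1796 CPM in KO saline, and 929.9 ± 536 CPM in WT AngII and 1073 ± 1223 CPM in WT saline. Cidea, a lipid droplet protein abundant in brown fat, averaged 449.9 ± 376 CPM in KO AngII and 740.0 ± 465 CPM in KO saline, and 434 ± 276 CPM in WT AngII and 420.1 ± 436 CPM in WT saline (n = 4 each). For KO against WT under AngII 4 of 11 brown genes were positive, with a median of -0.15, and under saline 8 of 11 were, with a median of 0.85 and none called. The general adipocyte genes had medians of 0.47 and 0.71 in these comparisons, and the difference from the brown genes was not tested. The brown genes summed to 2250 to 9804 CPM in KO saline, against 678 to 6117 CPM in WT saline. The highest value belongs to the library labelled KO saline replicate 1, and the sum was 2250 to 3740 CPM in the 3 remaining libraries of that group. Without that library Ucp1 averaged 1047 ± 433 CPM and Cidea 513 ± 122 CPM in KO saline (n = 3). The brown median without it was -0.43 for AngII against saline in KO, with 1 of 11 genes positive, and 0.19 for KO against WT under saline, with 7 of 11 positive.

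Adipocyte progenitor genes were read because the same fat holds precursor cells. Of the 6 genes, Ly6a, the Sca-1 surface protein of mesenchymal progenitors and also of endothelium, was higher in KO saline at 259 ± 46.6 CPM, against 162 ± 21.9 CPM in WT saline (log2 fold change 0.68, SE 0.16, edgeR adjusted p = 0.0387). Without the library labelled KO saline replicate 1 it was not called (0.63, SE 0.17, edgeR adjusted p = 0.0897). The other 5 progenitor genes were not called.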

How the data were processed

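RNA was measured by poly-A RNA sequencing of 16 suprarenal aortae, 4 per group, which the labels call biological replicates, so p-values measure the spread between these libraries. The deposited table held whole-number read counts that were not normalized. The submitters' processing notes name featureCounts 1.5.0-p3, HISAT2 2.0.5, DESeq2 1.20.0 and build GRCm39. For the annotation release, the strand setting and reads with several matches, the answer is not given in the sources used. A symbol was missing for 2725 genes, exactly those with 0 reads in all 8 WT libraries. Nothing says whether KO and WT libraries were counted together, so a difference in counting cannot be told apart from genotype.

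Counts were filtered by edgeR's default expression filter (15984 genes kept, at least 99.47% of reads), scaled by TMM and fitted in 1 model, over all 16 libraries and with group means (edgeR 4.0.16, R 4.3.3, quasi-likelihood F test, 12 residual degrees of freedom, biological coefficient of variation 35.3%). Calls needed an adjusted p under 0.05 (Benjamini-Hochberg, all genes tested). The SE is the absolute log2 fold change divided by the square root of F. Correlations used log2 CPM with a pseudocount of 0.5 and 100000 permutations. All tests were two-sided, and the scripts were tested on simulated data. The alternatives were RLE scaling, library totals, other filters, DESeq2 1.42.0, limma voom with quality weights (limma 3.58.1), the replicate number as a block, only the groups compared, and libraries left out. The Adipoq covariate and the ratio to Adipoq were added after the data had been seen.

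The 10 genes, the lists and the tests were chosen with earlier results of these data known. Named genes were the 10 genes, the called genes of the adipocyte, progenitor and sympathetic lists or else the 2 with the highest mean CPM, and the 10 genes closest to the group mean. Smooth muscle, endothelial and macrophage lists are given by their sums. Exon lengths came from a GRCm38 annotation and start regions from RefSeq on GRCm38.p6, and no other coordinates are printed.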

Additional observations from a re-analysis of the deposited data

Results flagged for a closer look

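The Lep values for AngII against saline had opposite signs in the genotypes, with log2 fold changes of 1.63 in KO (edgeR adjusted p = 0.112) and -1.47 in WT (edgeR adjusted p = 0.194), neither of them called by edgeR. The interaction was 3.10, with an unadjusted p of 7.66e-05 and an adjusted p of 0.185 by edgeR, and DESeq2 called it. Among 10 genes in 4 groups of 4, the gap of 1 library to the others was large against the range of its group in 2 cases. Chance gives about 1 in 20 such groups, which is about the number seen. Cidec stood at 353 CPM in KO saline replicate 4, below the other 3 KO saline libraries at 728 to 748 CPM. Lipe stood at 688 CPM in KO AngII replicate 1, above the other 3 KO AngII libraries at 357 to 401 CPM.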

How the results depend on the processing

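The Lep difference between KO AngII and WT AngII was called in 26 of 26 alternatives. The number of the 10 genes called moved elsewhere. With DESeq2 it was 1 for AngII in KO, 1 for AngII in WT and 1 for the interaction, each time Lep. With limma voom it was 1, 0 and 1 for these comparisons and 6 for KO against WT under saline. With 1 library left out it was 0 to 1 for AngII in KO, 0 to 2 for KO against WT under saline and 0 to 1 for the interaction. Signs near 0 turned with 1 library left out: Pparg for AngII in KO (-0.14 to 0.33), Adipoq for AngII in WT (-0.15 to 0.63), Lpl (-0.063 to 0.37) and Fabp4 (-0.12 to 0.41) for KO against WT under AngII, and the Retn interaction (-0.038 to 0.50, and -0.23 with limma voom). As a ratio to Adipoq, Lep in KO saline against WT saline was -0.88. The ratio has this sign because Adipoq, its denominator, differed more than Lep on CPM, with log2 fold changes of 0.96 and 0.31. What lay behind the Adipoq value was not tested.

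Genes called over the whole table numbered 8 for AngII in KO, 71 for AngII in WT, 324 for KO against WT under AngII, 481 under saline and 3 for the interaction. In the same order DESeq2 called 734, 280, 1230, 1362 and 104, limma voom 561, 254, 580, 3197 and 181, library totals 5, 20, 170, 2390 and 2, and the replicate block 14, 42, 166, 394 and 3. Only the groups compared gave 4, 57, 102 and 203 for the first 4, and the Adipoq covariate gave 120 for AngII in WT and 91 for KO against WT under saline. Without both KO libraries that stood apart AngII in WT had 128. With 1 library left out the counts were 6 to 32, 3 to 115, 100 to 845, 105 to 1743 and 2 to 12. Library totals made 168 of 2390 calls under saline higher in KO, against 197 of 481 with TMM. Same-numbered libraries did not deviate together (6 of 24 pairs with r above 0.1), and with the replicate block Lep was at 3.27 (edgeR adjusted p = 0.00167) in KO AngII against WT AngII.

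Lep had as few as 36 reads in a library, so its low levels carry the most counting error of the 10 genes. Of the 10 genes, those with differences near 1 on the log2 scale were not called by edgeR in the fit of all 16 libraries. Examples are Fabp4 in KO saline against WT saline (0.99, edgeR adjusted p = 0.284) and Retn in KO AngII against WT AngII (0.97, edgeR adjusted p = 0.143). The part of the group size and of the spread in WT saline in this was not tested.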
